A study of Rattus norvegicus with 123 samples.

Results

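ENSRNOT00000034289 is a single rat liver transcript, 1 of the 23110 Ensembl transcript probe sets in the deposited table, followed here over all 29 treatment groups of the series. It was chosen by its measured values: it is abundant in most vehicle controls, and its log2 value was lower than in controls by more than that of any other transcript with Wy-14643, and likewise in M rats given cyproterone acetate over 14 d. Those contrasts are therefore given as descriptions without a test. The table carries no gene symbol, and the rat gene table at hand (assembly GRCr8, 47357 genes) holds 0 Ensembl transcript identifiers, so neither the gene nor its function is named, and no sequence is shown.

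The series measured liver RNA of Han Wistar rats, described as male throughout the labels, on Affymetrix RaGene 2.0 ST arrays with 8 compounds and their vehicles given by gavage every day and the liver taken a day after the final dose. The 112 arrays marked as of good quality were used, 3 to 5 per group, while 11 others were not, and values are log2 intensities after RMA, a method that corrects background, equalises the arrays and combines the probes of a transcript. The compounds that the series' design counts as nongenotoxic liver carcinogens were Wy-14643 at 60 mg/kg for 28 d (5 arrays), cyproterone acetate at 100 mg/kg for 28 and 14 d in groups named F and M (4 arrays each), methapyrilene HCl at 100 mg/kg for 14 d and at 30 mg/kg for 28 and 14 d (3 each), Piperonyl-butoxide for 28 and 14 d at 600 mg/kg (3 each), 1,4-dichlorobenzene at 600 mg/kg for 28 d (4) and phenobarbital at 80 mg/kg for 14 d (3), 28 d (5) and 90 d (3). The non-carcinogens, each given for 28 d, were rosiglitazone at 10 mg/kg (3 arrays) and pioglitazone at 63 mg/kg (5) or 16 mg/kg (3). The vehicle of the 12 control groups was water, corn oil or carboxymethylcellulose, with 0 mg/kg of compound, and letters in their names mark control sets A to E. The labels do not spell out F and M, nor do they give an age beyond adult. The group names give doses as ppm, the dose field as mg/kg.

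Several of these compounds act on liver through nuclear receptors. Wy-14643 is an agonist of PPAR alpha, the receptor behind peroxisome proliferation in rodents. Phenobarbital is the classic activator of the receptor CAR, cyproterone acetate is a steroid that blocks the androgen receptor and acts as a progestin, and the glitazones activate PPAR gamma. Methapyrilene is an antihistamine that injures rat liver, piperonyl butoxide blocks cytochrome P450 enzymes and 1,4-dichlorobenzene is a chlorinated aromatic compound.

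The medians of the used arrays lay between 5.43 and 5.64 on the log2 scale. Their 10th percentiles lay between 2.64 and 3.18. The labelled tissue was not checked against marker genes, since no probe set carries a gene name. The liver samples are bulk RNA, so fewer cells that express the transcript and less of it per cell cannot be told apart.

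In the 10 control groups not named F, the transcript was uniformly high. The 42 arrays had log2 values from 10.74 to 12.45, with a median of 11.97. Group means ran only from 11.55, in the water group of set E, to 12.26, in the carboxymethylcellulose group of set A at 90 d, and SDs within groups from 0.12 to 0.48. These means thus spanned less than 1 log2 unit. The differences between days that could be tested did not pass the test. They were 0.11 (SE 0.39, limma adjusted p = 0.969) for 28 minus 14 d in set A, 0.32 (SE 0.41, adjusted p = 0.835) for 90 minus 28 d in set A and 0.30 (SE 0.50, adjusted p = 0.956) for 28 minus 14 d in set C. In those comparisons 0.0623%, 0.129% and 0.00445% of all 22470 transcripts tested were called higher at an adjusted p under 0.05.

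The 8 F control arrays stood far below those of all other control groups. They read 3.86, 4.56, 4.33 and 3.99 at 28 d and 3.75, 4.15, 3.19 and 3.36 at 14 d. The highest of them, 4.56, compares with 10.74 in the lowest array of the other control groups. The mean of F controls at 28 d was 4.18 ± 0.32 (SD, n = 4), against 11.82 ± 0.22 (n = 4) in M controls of the same day and vehicle, a measured level 199-fold lower with a log2 difference of -7.64 (SE 0.43, limma adjusted p = 2.05e-27). In that comparison 3.6% of transcripts were called lower in F, and 5 transcripts had a larger difference in that direction, the rank of the transcript being 6. Abundance in controls was part of the choice of the transcript, so neither this p-value nor this rank is independent of that choice. The files give no detection call, so whether F controls hold any of the transcript was not measured, and the measured fold may be only a lower bound. At 14 d the difference was -8.14 (95% interval -9.00 to -7.28), given without a test because the M controls of that day belong to a contrast that chose the transcript. The F controls did not pass a test between days, with a difference of 0.57 (SE 0.43, limma adjusted p = 0.999) for 28 minus 14 d. There limma called 0% of transcripts higher at an adjusted p under 0.05. At an unadjusted p under 0.05 it was 413 of 22470, a number that includes those expected without any difference.

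**Figure D1:**
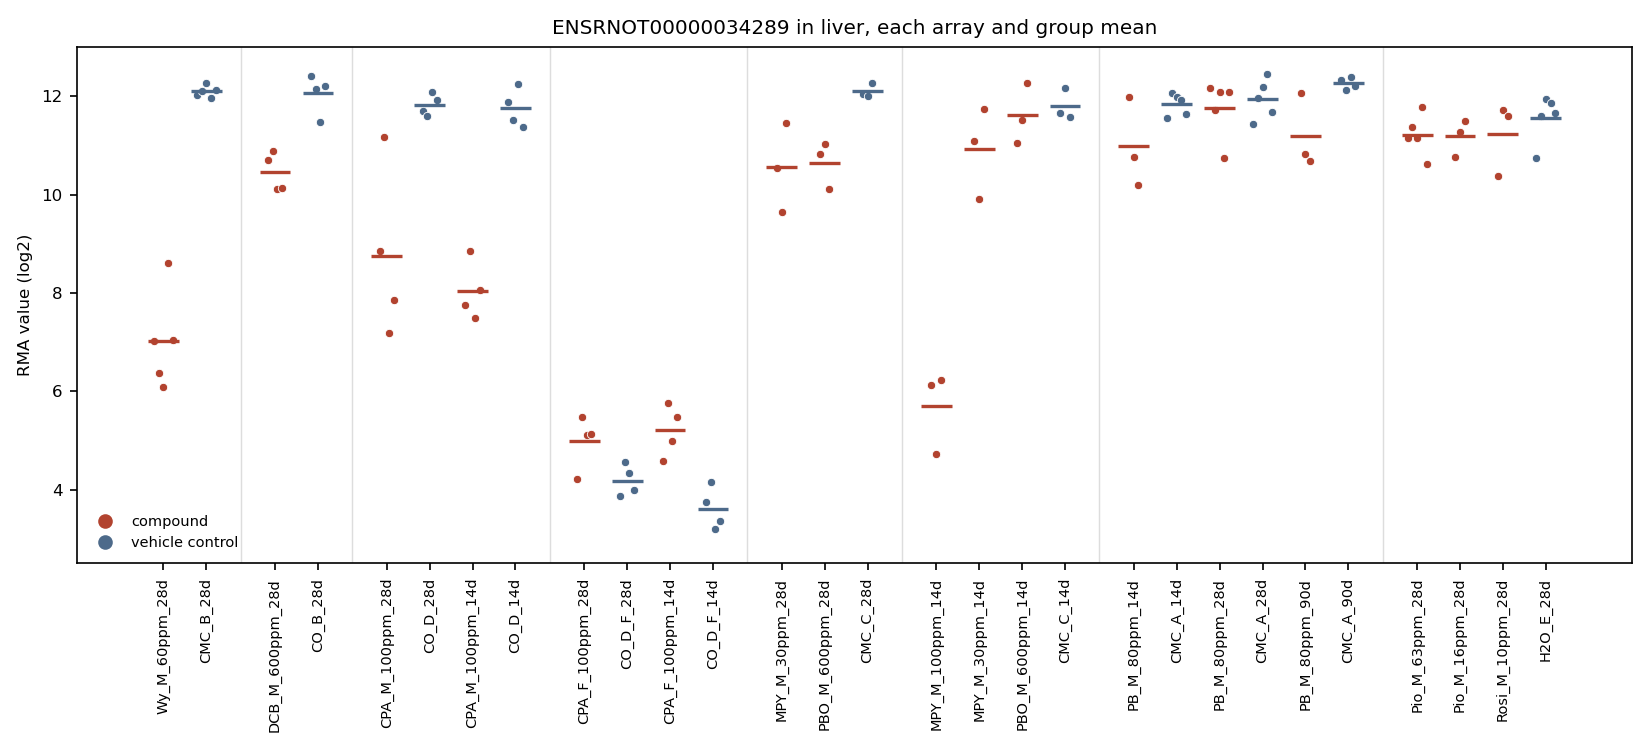
Log2 RMA value of ENSRNOT00000034289 in each used array (points) with the group mean (line), for all 29 groups named as in the labels, each compound group left of the vehicle control it is set against. The F groups lie between 3.19 and 5.76, the control groups not named F between 10.74 and 12.45. The Wy-14643, methapyrilene 100 mg/kg and cyproterone acetate M arrays lie below that control range, except replicate 2 of cyproterone acetate M at 28 d at 11.16.

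With Wy-14643 the level was 33.6-fold lower. The 5 arrays read 7.02, 6.37, 6.08, 8.60 and 7.05, against 12.02, 12.10, 12.28, 11.96 and 12.12 in the carboxymethylcellulose controls of set B. All treated arrays lay below all controls, with 3.36 log2 units between the ranges, and replicate 4 was the highest of the treated group. The difference was -5.07 (95% interval -5.84 to -4.30), and the next most negative difference of another transcript was -4.31. The choice by the largest fall favours a large value, and the interval makes no allowance for it. The remaining level was still above the F controls.

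In the M group given cyproterone acetate for 14 d, the arrays read 7.75, 8.85, 7.49 and 8.07, against 11.87, 11.51, 12.24 and 11.38 in corn oil controls. The ranges were 2.53 apart. The difference was -3.72 (95% interval -4.58 to -2.86), a 13.1-fold lower level, and the next most negative difference was -3.57. The size of this fall, too, was favoured by the choice, which the interval does not allow for.

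At 28 d, in other animals, cyproterone acetate again lowered the transcript in the M group. The arrays read 8.84, 11.16, 7.18 and 7.85, against 11.69, 11.59, 12.09 and 11.91 in controls. All 4 lay below the controls, but replicate 2 only by 0.43, and the SD of the treated group, 1.74, was the largest of all 29 groups. The transcript fell to 8.76 ± 1.74 (SD, n = 4) in treated animals, against 11.82 ± 0.22 (n = 4) in controls, a log2 change of -3.06 (SE 0.43, adjusted p = 6.89e-08). Of all transcripts, 5.14% were called lower, and this one ranked 7 among the falls. With only the groups compared in the fit, the SE was 0.69 and the limma adjusted p 0.0317, much nearer the threshold. Without replicate 2 of the treated group the change was -3.86.

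In F animals at 14 d the transcript rose with the compound, where it was lower in M animals. At that time the treated arrays read 4.59, 5.76, 4.99 and 5.48, all above the F controls. The level was 5.20 ± 0.52 (SD, n = 4) in treated F animals, against 3.61 ± 0.43 (n = 4) in F controls, a 3.02-fold rise with a log2 change of 1.59 (SE 0.43, adjusted p = 0.00546). Of all transcripts 7.53% were called higher. Both means lay below the array medians (5.43 to 5.64), and without a detection call the presence of the transcript at these levels was not measured. At 28 d the treated arrays read 4.22, 5.49, 5.11 and 5.14, and 3 of the 4 lay above every F control. The difference of 0.80 (SE 0.43, 95% interval -0.05 to 1.66) did not pass the test (adjusted p = 0.239), where 8.91% of transcripts were called higher. The days were not shown to differ: 28 minus 14 d gave -0.79 (SE 0.61, adjusted p = 0.999), with 0.00445% of transcripts called lower.

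Subtracting the M effect from the F effect at 28 d gave 3.87 (SE 0.61, adjusted p = 4.22e-06), and 2.06% of transcripts were called higher in that test. With only the groups compared in the fit, the limma adjusted p was 0.0239. Abundance in controls and the M fall at 14 d chose the transcript, so this difference was favoured by the choice. F animals stayed lower than M animals under the compound. At 28 d treated F animals averaged 4.99 ± 0.54 (SD, n = 4) and treated M animals 8.76 ± 1.74 (n = 4). Their difference was -3.77 (SE 0.43, limma adjusted p = 1.27e-10, or 0.0420 with only these groups in the fit), where 2.22% of transcripts were called lower. The 2 group types were thus closer under cyproterone acetate than in controls. At 14 d the difference between treated F and M animals was -2.83, against -8.14 in controls, both without a test.

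**Figure D2:**
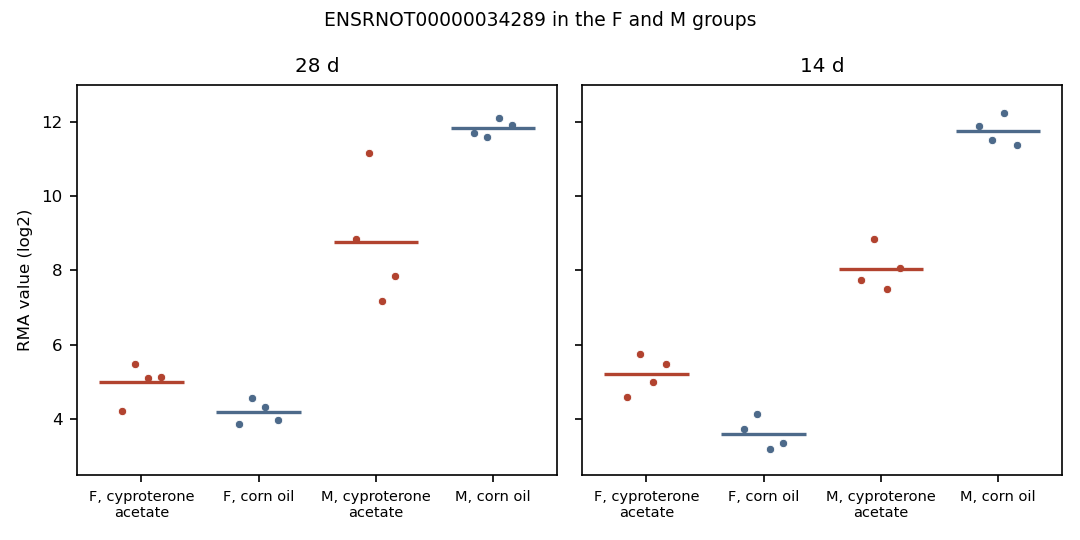
Log2 RMA value of ENSRNOT00000034289 in single arrays (points) and group means (lines) of the F and M groups, cyproterone acetate left of corn oil, at 28 d and 14 d. The treated F arrays span 4.22 to 5.76 and the F controls 3.19 to 4.56, the treated M arrays 7.18 to 11.16 and the M controls 11.38 to 12.24. The highest treated M array is replicate 2 at 28 d.

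Methapyrilene at 100 mg/kg gave the lowest level outside the F groups. The 3 arrays read 6.12, 4.72 and 6.23, against 11.66, 12.17 and 11.57 in carboxymethylcellulose controls, with 5.34 log2 units between the ranges. The transcript fell to 5.69 ± 0.84 (SD, n = 3) in treated animals, against 11.80 ± 0.32 (n = 3) in controls, a 69.0-fold drop with a log2 change of -6.11 (SE 0.50, adjusted p = 4.27e-19). With this dose 23.3% of all transcripts were called lower, and 8 others fell further, the transcript being at rank 9. Abundance in controls, part of the choice of the transcript, favoured a large fall, so p-value and rank are not independent of it. At that dose the arrays of the treated group overlapped the range of the treated F animals.

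The lower dose of methapyrilene had a much smaller effect. At 28 d the arrays read 10.54, 9.65 and 11.46 with 30 mg/kg, against 12.04, 12.00 and 12.26 in controls, and did not overlap. The fall was -1.55 (SE 0.50, adjusted p = 0.0324), a 2.93-fold lower level, where 4.06% of transcripts were called lower. This call did not hold with only the arrays of control set C in the fit (adjusted p = 0.0768) or only the groups compared (adjusted p = 0.158), and was lost without any 1 of 5 of its 6 arrays; without treated replicate 2 the difference was -1.10 (adjusted p = 0.310).

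At 14 d the 30 mg/kg arrays read 11.09, 9.92 and 11.74, and the highest lay within the control range. The difference was -0.88 (SE 0.50, 95% interval -1.88 to 0.11, adjusted p = 0.428), with 1.07% of transcripts called lower. Without treated replicate 2 it was -0.38. Between doses at 14 d, 100 mg/kg was lower than 30 mg/kg by a log2 difference of -5.23 (SE 0.50, adjusted p = 1.72e-15), a test in which 15.5% of transcripts were called lower. The effects at 30 mg/kg were not shown to differ between days, with -0.67 (SE 0.71, adjusted p = 0.999) for 28 minus 14 d. Here limma called 0% of transcripts lower. At an unadjusted p under 0.05 it was 578 of 22470, a number that includes those expected without any difference.

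Piperonyl butoxide, which shares its controls with methapyrilene, lowered the transcript at 28 d. The arrays read 10.82, 11.02 and 10.10, all below the controls given above, with 0.98 between the ranges. The fall was -1.45 (SE 0.50, adjusted p = 0.0451), a 2.74-fold lower level, where 5.71% of transcripts were called lower. The p lay just under the threshold: it was 0.0972 with only control set C in the fit, 0.0586 with only the groups compared, 0.0531 with all arrays and 0.0504 after centring each array on its median. Leaving out 5 of the 6 arrays in turn ended the call, with a difference of -1.18 without treated replicate 3.

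At 14 d the piperonyl butoxide arrays, 11.05, 11.52 and 12.27, spanned the controls on both sides. The difference was -0.19 (SE 0.50, 95% interval -1.18 to 0.81, adjusted p = 0.941), with 0.676% called lower. The difference between days, -1.27 (SE 0.71), had an adjusted p of 0.523 and 0.0134% of transcripts called lower.

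1,4-Dichlorobenzene lowered the transcript about 3.03-fold. The arrays read 10.69, 10.89, 10.11 and 10.13, against 12.41, 12.14, 11.48 and 12.21 in corn oil controls of set B. The ranges were 0.58 apart. The level fell to 10.46 ± 0.40 (SD, n = 4) in treated animals, against 12.06 ± 0.40 (n = 4) in controls, a log2 change of -1.60 (SE 0.43, adjusted p = 0.0116), where 2.07% of transcripts were called lower. The array of this compound that is marked as not of good quality, replicate 4, read 12.02, within the control range, and with all arrays in the fit the change was -1.29. The call held without any single array, but the limma adjusted p then reached 0.0494 at most. With the replicate block it was 0.0381.

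Phenobarbital gave no call at any time. At 14 d the arrays read 11.99, 10.77 and 10.19, against 11.55, 12.07, 11.97, 11.93 and 11.64 in controls. At 28 d they read 12.16, 11.72, 12.09, 10.75 and 12.09, against 11.44, 11.97, 12.19, 12.45 and 11.68 in controls. At 90 d they read 12.06, 10.83 and 10.67, against 12.34, 12.12, 12.39 and 12.21 in controls. The arrays below every control were 2 of 3 at 14 d, 1 of 5 at 28 d and 3 of 3 at 90 d, where the ranges lay only 0.06 apart.

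The phenobarbital differences were -0.85 (SE 0.45, adjusted p = 0.418) at 14 d, -0.18 (SE 0.39, adjusted p = 0.924) at 28 d and -1.08 (SE 0.47, adjusted p = 0.313) at 90 d. The 95% intervals were -1.74 to 0.03, -0.95 to 0.59 and -2.004 to -0.148, so falls of more than 1 log2 unit at 14 and 90 d lie within them. The 14 d value was -1.35 without treated replicate 1 and -0.46 without treated replicate 5. In these comparisons 0.765%, 0.28% and 0.623% of transcripts were called lower. The effects did not pass a limma test of the difference between 28 and 14 d, 0.67 (SE 0.59, adjusted p = 0.791, with 0.0623% called higher). Nor did they between 90 and 28 d, -0.89 (SE 0.61, adjusted p = 0.999), where limma called 0% lower. At an unadjusted p under 0.05 it was 528 of 22470 there, a number that includes those expected without any difference.

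The glitazones, given with the same 5 water controls, left the transcript high. Those controls read 10.74, 11.59, 11.94, 11.85 and 11.65. Pioglitazone at 63 mg/kg gave 11.14, 11.36, 11.15, 11.79 and 10.61, a difference of -0.34 (SE 0.39, 95% interval -1.11 to 0.43, adjusted p = 0.718). At 16 mg/kg the arrays read 10.77, 11.28 and 11.50, a difference of -0.37 (SE 0.45, 95% interval -1.26 to 0.51, adjusted p = 0.867). All ranges overlapped the controls.

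Rosiglitazone at 10 mg/kg gave 10.38, 11.72 and 11.60, a difference of -0.32 (SE 0.45, 95% interval -1.21 to 0.56, adjusted p = 0.879). Among all transcripts 1.48%, 0.0267% and 0.481% were called lower with the higher dose of pioglitazone, its lower dose and rosiglitazone, in that order. The 2 doses of pioglitazone differed by 0.03 (63 minus 16 mg/kg, 95% interval -0.86 to 0.92, adjusted p = 0.990), where 0.0134% were called higher. The compounds are both thiazolidinediones, but their doses differ, so their values stand side by side only.

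**Figure D3:**
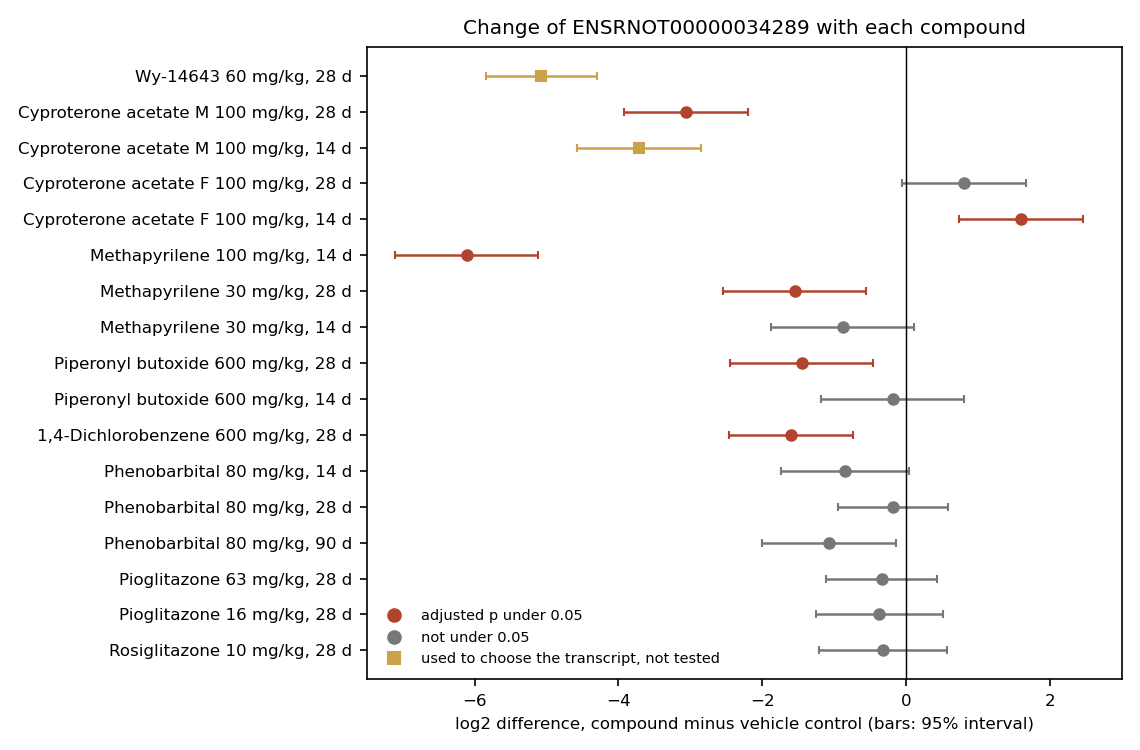
Log2 difference of ENSRNOT00000034289, compound minus its vehicle control, with 95% intervals from the limma fit, for the 17 compound groups. Red points passed an adjusted p of 0.05, grey points did not, and the 2 yellow squares are the contrasts that chose the transcript. The intervals of these squares do not allow for that choice. All 15 differences outside the F groups lie below 0 and both F differences above it.

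Over the comparisons with a compound outside the F groups that were not used to choose the transcript, 13 of 13 differences lay below 0 and 5 passed the test, with 8 not passing. Several of these share controls and are not independent. The transcript was also chosen for its abundance in controls, which favours differences below 0. How many of all transcripts lay below 0 in these comparisons was not counted. The share of all transcripts called lower ranged from 0.0267% to 23.3% over the same comparisons, as given above. In 8 of the 15 comparisons outside the F groups, those 2 that chose the transcript included, compound and control ranges did not overlap. The choice favoured separate ranges in those 2. How many of all transcripts had separate ranges was not counted, so this number is a description only.

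Ordered by their means, the 29 groups formed a steep lower part and a flat upper part. From the bottom, the F controls at 14 d (3.61) and 28 d (4.18), the treated F groups at 28 d (4.99) and 14 d (5.20), methapyrilene at 100 mg/kg (5.69), Wy-14643 (7.02) and the cyproterone acetate M groups at 14 d (8.04) and 28 d (8.76) made up the lower part. The other 21 groups lay between 10.46, with 1,4-dichlorobenzene, and 12.26. The gap between the parts, 1.70, did not exceed the larger SD of its pair, 1.74, so the parts are a description of the means only. Only 5 of the 28 gaps between neighbours exceeded the larger SD of the pair: F controls at 28 d over 14 d, treated F at 28 d over F controls at 28 d, Wy-14643 over methapyrilene at 100 mg/kg, cyproterone acetate M at 14 d over Wy-14643, and controls of set A at 90 d over controls of set C at 28 d. The other 23 neighbours did not differ beyond their spread, the treated F group at 14 d and methapyrilene at 100 mg/kg among them, and the ranges of neighbours overlapped in all 28 pairs.

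Arrays of 1 group differed more for this transcript than for most. Its residual SD within groups was 0.63, against a median of 0.20 over all transcripts, and 99.3% of transcripts had a smaller one. The spread was wider with a compound: pooled over groups not named F, the SD was 0.83 in the 15 treated groups, against 0.32 in the 10 control groups. The limma fit uses 1 spread for all groups, so its SE is wide for the tight control groups and narrow for a group such as cyproterone acetate M at 28 d.

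The transcripts with the most similar pattern were sought among 6887 whose group means span at least 1 log2 unit. ENSRNOT00000017310 had the highest Pearson correlation with it over the 29 group means, 0.96, and ENSRNOT00000046942 the next, 0.96; over the 25 groups not named F the values were 0.89 and 0.86. The values of both transcripts come from the same arrays and the same normalization. In all, 13 transcripts had a correlation above 0.9 and 4 one below -0.9. The most opposite were ENSRNOT00000055073, at -0.92, and ENSRNOT00000004699, at -0.92. Their means were nearly the same, at 7.15 and 7.26 in set A controls at 14 d, and 8.34 and 8.42 in F controls at 28 d. They therefore may not be separate measurements.

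Both most similar transcripts were low in F controls and with the high methapyrilene dose, but with 1,4-dichlorobenzene only ENSRNOT00000046942 was lower than in controls, as ENSRNOT00000034289 was. ENSRNOT00000017310 averaged 3.85 ± 0.28 (SD, n = 4) in F controls at 28 d, against 12.42 ± 0.17 (n = 4) in M controls, and ENSRNOT00000046942 averaged 3.77 ± 0.45, against 10.09 ± 0.35. With 1,4-dichlorobenzene, ENSRNOT00000017310 stood at 12.55 ± 0.11, against 12.40 ± 0.14 in controls, while ENSRNOT00000046942 stood at 8.47 ± 0.16, against 10.43 ± 0.34 (n = 4 each). The opposite transcript ENSRNOT00000055073 averaged 8.34 ± 0.13 in F controls at 28 d, against 7.31 ± 0.08 in M controls, a far smaller span. These values are descriptions, since the transcripts were picked for their likeness.

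The array that was highest in its group was compared with the similar transcripts in 3 treated groups, and was the same in 2 of them. In the cyproterone acetate M group at 28 d, replicate 2 was the highest for ENSRNOT00000034289, at 11.16, for ENSRNOT00000017310, at 12.08, and for ENSRNOT00000046942, at 9.75. With Wy-14643, replicate 4 was the highest of its group for all 3, at 8.60, 11.32 and 9.29. With methapyrilene at 30 mg/kg for 28 d it differed: replicate 3 was the highest for ENSRNOT00000034289, at 11.46, but replicate 1 for ENSRNOT00000017310, at 11.73, and for ENSRNOT00000046942, at 8.89, where replicate 3 was the lowest, at 8.56. Over the 112 arrays, deviations from the group means correlated at 0.58 with ENSRNOT00000017310 and at 0.59 with ENSRNOT00000046942, the highest value for any transcript being 0.77. No probe set reached 0.9 in this measure, and 0 had values identical to those of ENSRNOT00000034289.

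**Figure D4:**
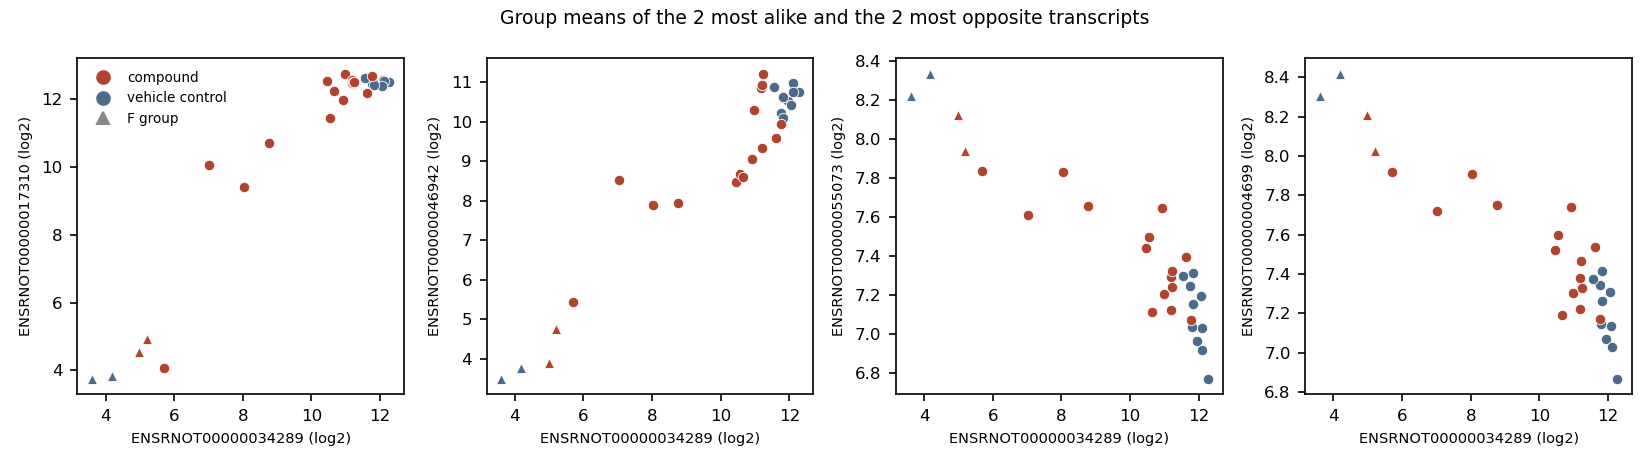
Group means on the log2 scale of ENSRNOT00000034289 (horizontal) against the 2 transcripts with the highest and the 2 with the lowest correlation over the 29 groups (vertical), with compound groups in red, vehicle controls in blue and F groups as triangles. The control groups not named F cluster at 11.55 to 12.26 on the horizontal axis, and the low end is held by the F groups and by methapyrilene at 100 mg/kg. The 2 transcripts with the lowest correlation have nearly the same values as each other.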

How the data were processed

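The deposited table holds log2 values of 23110 probe sets per array, made by the authors with RMA and affy, per the submitters' processing notes; versions, annotation release and whether all arrays were normalized in 1 run are not given in the sources used here. Groups, doses, days, control groups and quality marks came from the labels. Probe sets identical to an earlier one on every array (640) were left out, which left 22470. limma 3.58.1 in R 4.3.3 fitted 1 mean per group to the 112 arrays marked as of good quality (83 residual and 4.23 prior degrees of freedom), with Benjamini-Hochberg adjustment over all transcripts of each comparison and a threshold of 0.05. The fit was run on simulated data in which each transcript had the same spread in all groups. That run could not test the wider spread of this transcript in treated groups. In all, 29 comparisons were tested, 15 of a compound with its control and 14 differences. The transcript and the comparisons were chosen with earlier results of these data known. Named beside it, by rule, are the 2 transcripts with the highest and the 2 with the lowest correlation of group means. The alternatives were all arrays, fewer groups in the fit, centring on medians, quantile normalization, a filter on dim transcripts, trend and robust variances, the replicate number as a block, and leaving out each array. The labels number replicates without stating 1 animal per array, so p-values measure the spread between these arrays, whose number limits the precision. RMA compresses folds at low intensities, and no detection call is given, so whether the transcript is present in F controls was not measured.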

Additional observations from a re-analysis of the deposited data

Results flagged for a closer look

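The effect of cyproterone acetate on ENSRNOT00000034289 differed between the F and M groups. At 28 d, subtracting the M effect from the F effect gave 3.87 log2 units (SE 0.61, limma adjusted p = 4.22e-06), with 3 of 4 treated F arrays above every F control and 4 of 4 treated M arrays below every M control. At 14 d it was 5.31, with all treated F arrays above and all treated M arrays below their controls. The 14 d difference was not tested, because the M contrast chose the transcript. At 28 d the limma adjusted p was 0.0239 with only the groups compared in the fit. Abundance in controls was also part of the choice. F controls, at 3.19 to 4.56, lay below the array medians and had less room to fall than M controls. A positive difference was therefore favoured in advance at both days.

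Of 18 groups with 4 or more arrays, 0 held an array set apart by Dixon's criterion at its 95% critical value; the largest gap over the range was 0.718.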

How the results depend on the processing

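The 29 tested values of ENSRNOT00000034289 were recomputed under 8 alternatives, giving 232 values, of which 223 kept direction and side of the threshold, 6 lost the call, 0 gained one and 3 turned sign. Leaving out each array in turn gave 267 values, of which 250 were unchanged in this sense, 10 lost the call and 7 turned sign. The calls lost were those of methapyrilene at 30 mg/kg and of piperonyl butoxide, both at 28 d. The methapyrilene value stayed at -1.55 with only control set C (adjusted p = 0.0768) or only the groups compared (0.158), and ran from -2.01 to -1.10 without single arrays (adjusted p 0.0161 to 0.310). The piperonyl butoxide value was -1.45 with all arrays (0.0531), with set C (0.0972) and with only the groups compared (0.0586), -1.42 after centring on medians (0.0504), and -1.64 to -1.18 without single arrays (0.0332 to 0.161).

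Other values that had not passed the test moved by over 1.5 times without single arrays while keeping their sign: methapyrilene at 30 mg/kg and 14 d ran from -1.30 to -0.38, phenobarbital at 14 d from -1.35 to -0.46, pioglitazone from -0.55 to -0.19 at 63 mg/kg and from -0.58 to -0.16 at 16 mg/kg, 90 minus 28 d in set A controls from 0.19 to 0.45, 28 minus 14 d in set C controls from 0.19 to 0.48, and the day differences of the effect from -1.17 to -0.22 for methapyrilene at 30 mg/kg and from 0.27 to 1.17 for phenobarbital (28 minus 14 d).

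Values that turned sign had not passed the test: without single arrays, piperonyl butoxide at 14 d ran from -0.515 to 0.0938, phenobarbital at 28 d from -0.311 to 0.0697, rosiglitazone from -0.56 to 0.10, and 28 minus 14 d in set A controls from -0.0147 to 0.239. The pioglitazone dose difference was -0.0015 with all arrays, -0.0010 after centring, -0.0263 with the replicate block and -0.18 to 0.19 without single arrays. The replicate block changed no call. In 17 comparisons the correlations of same-numbered arrays over all transcripts ran from -0.11 to 0.08. Pairing by number was thus not detected over all transcripts, and whether it holds for some was not tested. Centring shifted the median of all transcripts by -0.13 with methapyrilene at 100 mg/kg and by -0.11 in its dose difference, where the transcript stood at -6.24 and -5.33.

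Counts of transcripts called moved by over 1.5 times in 25 of 29 comparisons. With only the groups compared they were 720 against 1156 for cyproterone acetate M at 28 d, 16 against 913 for methapyrilene at 30 mg/kg and 28 d, 36 against 1283 for piperonyl butoxide at 28 d, 227 against 466 for 1,4-dichlorobenzene and 67 against 498 for treated F minus M animals. For methapyrilene at 100 mg/kg they were 7863 after centring (35.0% of 22470), against 5227 (23.3%). Without the dimmest 40% of transcripts they were 3390 of only 13482 tested, or 25.1%, so the share called did not fall. Counts in the other settings are out of 22470 transcripts. Groups of 3 to 5 arrays limit the precision. Levels in F controls (3.19 to 4.56) lie between the 10th percentiles (2.64 to 3.18) and the medians (5.43 to 5.64) of the arrays, and no detection call was available.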

Other observations

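Of the 11 arrays marked as not of good quality, 7 lay within the range of the used arrays of their group for ENSRNOT00000034289. The other 4 were 1,4-dichlorobenzene replicate 4 at 12.02 (used arrays 10.11 to 10.89), phenobarbital 90 d replicates 1 and 3 at 9.68 and 12.23 (used arrays 10.67 to 12.06) and the set A control replicate 5 at 90 d at 12.01 (used arrays 12.12 to 12.39). The technical repeat of a set A control at 14 d differed from its array by 0.06.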
